A study of Mus musculus with 9 samples.

Results

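A set of 10 genes of sphingosine 1-phosphate (S1P) metabolism, transport and reception was followed in sorted mouse haematopoietic stem cells (HSCs), the marrow cells that give rise to all blood lineages. They are the kinases Sphk1 and Sphk2, the lyase Sgpl1, the phosphatase Sgpp1, the exporters Spns2 and Mfsd2b, and the receptors S1pr1, S1pr2, S1pr3 and S1pr4. The 10 genes were taken by symbol from the 23317 rows of the deposited table, each symbol matched 1 row, and all 10 were among the 14227 genes kept by the filter on low counts. Sphk2 encodes the target that the submitters name for ABC294640, the compound used in the study. The cells came from wild-type mice in 3 groups of 3 libraries: young HSC, old HSC without the compound, and old HSC treated with ABC294640. The protocols give marrow from mice of 2 to 4 or 20 to 24 months, read here as the young group and both old groups. A library was made from 1500 sorted cells with 12 cycles of PCR. The sources used here give neither the gate of the sort nor the dosing of the compound. They do not say whether the 3 libraries of a group came from different mice, so the p-values below measure the spread between these libraries, which may be technical.

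S1P is a signalling lipid made inside cells when a sphingosine kinase adds phosphate to sphingosine, which is itself released from ceramide. It can be cut irreversibly by the lyase, returned to sphingosine by a phosphatase, or carried out of the cell by dedicated transporters to bind G protein-coupled receptors on the same or other cells. In blood and marrow, red cells, platelets and endothelium are known sources of circulating S1P, and the gradient between blood and tissue guides the exit of lymphocytes and of haematopoietic progenitors.

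Library totals ran from 16663445 to 23254115 counts. Levels are in CPM, the count as a part of the TMM-scaled library size, and are given as mean ± SD over 3 libraries. Each log2 fold change is given ± its standard error. The test was edgeR's quasi-likelihood one throughout, with p-values adjusted by Benjamini-Hochberg over all 14227 genes and called below 0.05. "Rose" and "fell" are written of genes that passed it. A list of 10 HSC and progenitor markers was detected in full in every group. Its summed level was 811.5 to 821 CPM in young, 667.5 to 679 in old and 692.9 to 706.5 in treated old libraries. The largest means of the list in young HSC were those of Cd48, at 296.3 CPM, and Cd34, at 187.7. With age 5 of the 10 markers fell and 2 rose, where 19.8% and 19.6% of all genes did. The sum therefore does not show that the groups hold the same make-up of cells. Procr, a surface marker of the most primitive HSCs, was at 2.33 to 4.10 CPM. Mpo, a granule gene of myeloid progenitors, was at 10890 CPM or more in every library. HSC is used here as the submitters' label for the sorted cells, and these levels do not show that all of them are stem cells. The Y-linked gene Ddx3y was at 0.664 to 1.18 CPM in young, 35.9 to 44.7 in old and 32.3 to 43.1 in treated old libraries, so the age of the mice and their apparent sex cannot be told apart in any comparison with the young group. All 10 genes of the S1P set are autosomal. In bulk libraries, fewer cells of a type and less RNA per cell cannot be told apart.

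With age, Sphk1 and the exporter gene Mfsd2b fell and the phosphatase gene Sgpp1 rose. Sphk1 was 1.77-fold lower in old than in young HSC, Mfsd2b 1.31-fold lower and Sgpp1 1.47-fold higher. The kinase targeted by the compound, Sphk2, did not pass the test, and neither did the lyase gene, Spns2 or any of the 4 receptors. So 3 of the 10 genes passed, against 39.4% of all genes tested, a share no higher than the background. The fall was called in 2 of 10 (19.8% of all genes) and the rise in 1 of 10 (19.6%). Over the 10 genes the median log2 fold change was -0.20 and the median absolute one 0.22, beside -0.03 and 0.23 over all genes. At an unadjusted p under 0.05 there were 4 of 10 (47.8% of all genes). The 3 old libraries lay entirely above or below the 3 young ones for 4 of the 10, Sphk1, Mfsd2b, Sgpp1 and S1pr3, against 48.4% of all genes. They were lower for 3 of the 10 (25.6% of all genes) and higher for 1 (22.8%). By DESeq2 60.3% of all called genes rose with age and by edgeR 49.7%, while the calls among the 10 genes were the same 3 by both.

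**Figure D1:**
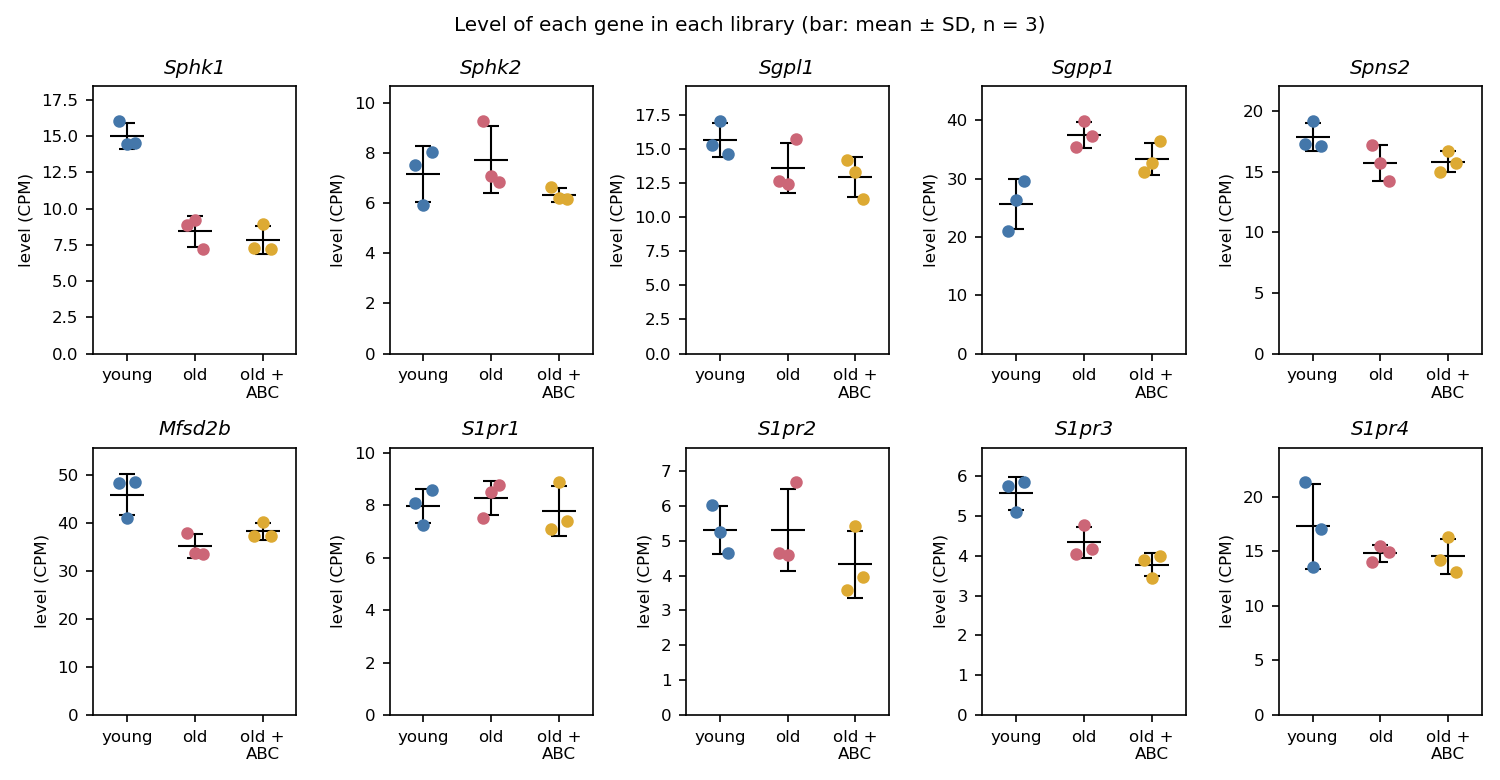
Level in CPM (vertical axis, from 0) of each of the 10 genes in each library of young, old and ABC294640-treated old HSC (points), with the mean and SD of 3 libraries (black). Sphk1 is at 14.47 to 16.05 CPM in young libraries and at 7.22 to 9.24 in all 6 old ones, all old libraries exceed all young ones for Sgpp1, and Sphk2 overlaps between young and old.

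Sphk1 encodes a largely cytosolic kinase that moves to the plasma membrane on stimulation. It lies on chromosome 11, from 116530925 to 116536674 on the plus strand of GRCm38 (ENSMUSG00000061878). Its level was 16.05, 14.5 and 14.6 CPM in the 3 young libraries, 8.88, 9.24 and 7.22 in the old ones and 7.25, 8.93 and 7.24 in the treated ones. The young libraries did not overlap with either old group, and the old groups overlapped with each other. The log2 fold change was -0.83 ± 0.114 with age (adjusted p = 8.21e-06) and -0.12 ± 0.125 with the compound (adjusted p = 0.871). The 95% interval of the compound's fold ran from 0.765 to 1.10. Sphk1 counts ran from 118 to 387 per library.

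The RefSeq table holds several starts of Sphk1, each with a promoter window (GRCm38.p6, from 250 bases before a start to 50 after it). The one farthest upstream, chr11:116530850-116531149 on the plus strand, is shown because Sphk1 changed most of the 10 genes with age. It holds none of 6 motifs searched on both strands. They were the GC box bound by Sp factors, spelled GGGCGGG, the core of sites for ETS family factors, spelled CCGGAA, and the core of sites for GATA family factors, spelled AGATAA. The others were the E-box of basic helix-loop-helix factors, spelled CACGTG, the CACCC box known from erythroid promoters, spelled CCACCC, and the cyclic AMP response element, spelled TGACGTCA. Capitals in the windows printed here and below mark these letters on either strand, and no matches overlap each other in the windows of the 10 genes.
Sphk1, first start: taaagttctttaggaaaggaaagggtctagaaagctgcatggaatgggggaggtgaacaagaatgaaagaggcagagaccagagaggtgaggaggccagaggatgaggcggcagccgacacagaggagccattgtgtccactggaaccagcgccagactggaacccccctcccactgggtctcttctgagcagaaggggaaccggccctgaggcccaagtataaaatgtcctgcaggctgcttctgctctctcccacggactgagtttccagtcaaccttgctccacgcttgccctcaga
The other 4 windows of Sphk1, which form overlapping pairs, hold between them the CACCC box, the ETS core, the GATA core and the E-box. Of all 32851 windows in the table, 31.5% hold the CACCC box, 14.9% the ETS core, 11.2% the GATA core and 7.2% the E-box. A match is a description of letters and not evidence of binding.

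Sphk2 encodes the kinase that is found in the nucleus, mitochondria and endoplasmic reticulum as well as the cytosol. Its level was 7.55, 5.93 and 8.06 CPM in young, 9.30, 7.08 and 6.86 in old and 6.67, 6.22 and 6.17 in treated old libraries. Young and old libraries overlapped, and the highest treated library, at 6.67 CPM, lay just below the lowest old one, at 6.86. Between old and young HSC the log2 fold change was 0.10 ± 0.141 (adjusted p = 0.595), and its sign turned without young replicate 2 (-0.001) and without old replicate 1 (-0.04). Between treated and untreated old HSC it was -0.28 ± 0.148, with an unadjusted p of 0.0695 and adjusted p = 0.621 by edgeR's quasi-likelihood test. The 95% interval of that fold ran from 0.664 to 1.02. Without old replicate 1, the highest library at 9.30 CPM, the log2 fold change was -0.13. These values describe the transcript of the target, and no file used here measures the activity of the enzyme. Counts of Sphk2 ran from 101 to 182 per library, so that counting alone gives a coefficient of variation of 7.92% to 9.45%, beside 15.4% between young, 17.4% between old and 4.39% between treated libraries.

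The count of Sphk2 is uncertain at both of its ends. The gene lies on chromosome 7, from 45709467 to 45718002 on the minus strand (ENSMUSG00000057342). It overlaps the circadian transcription factor gene Dbp at its 3′ end and the ribosomal protein gene Rpl18 at its 5′ end, both on the plus strand. Of the 4159 exonic bases of Sphk2, 539 are also exonic in Dbp and 373 in Rpl18. The library kit does not mark strand, so reads from the shared bases cannot be told apart by it. Rpl18 was at 1157 ± 74.8 CPM in young, 1031 ± 81.0 in old and 1112 ± 47.0 in treated old HSC. Per kilobase of exon that is 286.1, 254.9 and 275 CPM, against 1.73, 1.86 and 1.53 for Sphk2. Dbp was at 5.73 ± 0.113, 4.07 ± 0.747 and 4.99 ± 2.04 CPM. With age Rpl18 fell (log2 fold change -0.17 ± 0.055, adjusted p = 0.02), and Dbp, at -0.51 ± 0.212, did not pass (adjusted p = 0.0644). Neither passed with the compound, where the log2 fold changes were 0.11 ± 0.055 for Rpl18 and 0.30 ± 0.222 for Dbp, both opposite in sign to that of Sphk2. Their part in the value of Sphk2 was not tested.

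**Figure D2:**
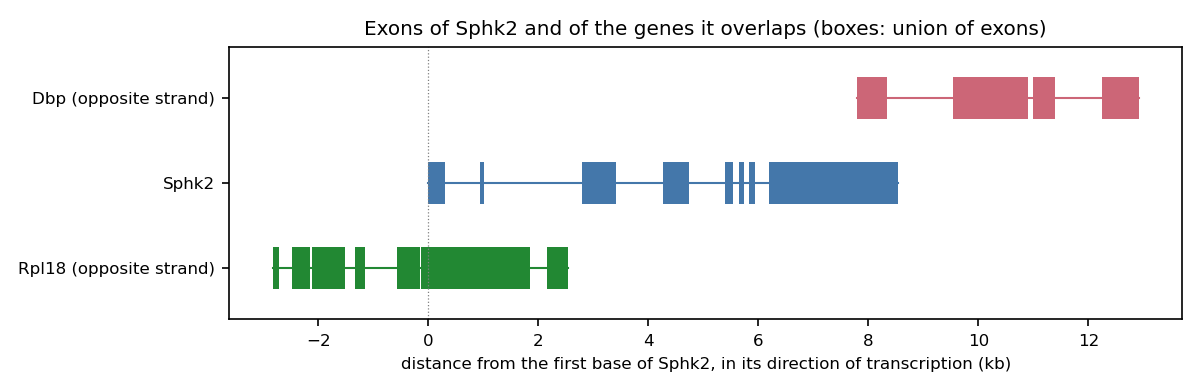
Union of annotated exons (boxes) of Sphk2, Dbp and Rpl18 along the distance in kb from the first base of Sphk2, in its direction of transcription. An exon of Rpl18 covers the first exons of Sphk2 and an exon of Dbp lies near the end of its last one, together the 373 and 539 shared exonic bases.

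Both RefSeq promoter windows of Sphk2, the compound's target, are printed. The first lies inside the annotated span of Rpl18, which begins at base 45715457, the upstream end of the second window.
Sphk2, first start, chr7:45717953-45718252, minus strand: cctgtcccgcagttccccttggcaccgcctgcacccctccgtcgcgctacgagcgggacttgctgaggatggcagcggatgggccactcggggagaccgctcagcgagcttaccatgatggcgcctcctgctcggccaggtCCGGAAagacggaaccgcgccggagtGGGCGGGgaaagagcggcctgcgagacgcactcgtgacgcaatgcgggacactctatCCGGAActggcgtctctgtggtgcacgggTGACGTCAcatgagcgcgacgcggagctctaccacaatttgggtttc
Sphk2, second start, chr7:45715158-45715457, minus strand: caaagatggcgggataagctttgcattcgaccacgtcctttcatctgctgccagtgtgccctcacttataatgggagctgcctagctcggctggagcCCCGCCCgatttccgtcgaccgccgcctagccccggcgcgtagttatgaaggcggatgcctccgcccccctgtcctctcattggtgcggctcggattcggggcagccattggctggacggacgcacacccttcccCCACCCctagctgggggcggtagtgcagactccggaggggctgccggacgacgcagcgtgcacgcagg
The first window holds a GC box, the ETS core at 2 places and the cyclic AMP response element, which 1.8% of all windows hold. The second holds a GC box on the opposite strand, found in 25.6% of all windows, and a CACCC box. The first has 33 CG pairs and the second 27, beside a median of 7 over all windows.

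The share of Sphk1 in the kinases was taken from levels per length. CPM per kilobase of exon was 3.15 ± 0.187 for Sphk1 and 1.73 ± 0.266 for Sphk2 in young HSC, and 1.77 ± 0.225 and 1.86 ± 0.324 in old HSC. Sphk1 therefore made up 61.1% to 68.0% of the summed kinase level in young libraries, 45.4% to 53.2% in old and 48.6% to 55.6% in treated old ones. The young range did not overlap with either old range, as was so for the levels of 48.4% of all genes with age. The share was not tested and rests in part on the uncertain count of Sphk2. Lengths of the longest transcript in place of all exons gave 61.2% to 68.0%, 45.5% to 53.2% and 48.7% to 55.6%.

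Of the enzymes that remove S1P, Sgpp1 rose with age and Sgpl1 did not pass the test. Sgpp1 encodes a phosphatase of the endoplasmic reticulum that turns S1P back to sphingosine (ENSMUSG00000021054, chromosome 12, 75714249 to 75735729, minus strand). It was at 21.1, 26.3 and 29.6 CPM in young, 35.4, 39.9 and 37.3 in old and 31.1, 32.7 and 36.4 in treated old libraries. Every library of both old groups was above every young one, and the old groups overlapped. The log2 fold change was 0.55 ± 0.096 with age (adjusted p = 0.000125) and -0.17 ± 0.096 with the compound (adjusted p = 0.665). Sgpl1, the lyase that splits S1P for good, was at 14.6 to 17.1 CPM in young, 12.4 to 15.7 in old and 11.4 to 14.2 in treated old libraries. Its log2 fold change with age was -0.21 ± 0.109 (adjusted p = 0.138). Per length, Sgpp1 held 61.1% ± 4.43 of the summed level of Sgpp1, Sgpl1 and Sgpp2 in young HSC, 72.3% ± 3.18 in old and 71.4% ± 3.85 in treated old HSC. The young libraries (57.8% to 66.1%) did not overlap with the old (69.5% to 75.7%) or the treated ones (68.1% to 75.6%). The levels of 48.4% of all genes did not overlap with age. The share contains the level of Sgpp1, whose rise is given above, and was not tested. Sgpp2, a second phosphatase that is not among the 10 genes, was at 0.912 to 1.71 CPM over all libraries.

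The promoter window of Sgpp1, the only one of the 10 genes that rose with age, holds the ETS core once, read on the opposite strand, and 36 CG pairs.
Sgpp1, chr12:75735680-75735979, minus strand: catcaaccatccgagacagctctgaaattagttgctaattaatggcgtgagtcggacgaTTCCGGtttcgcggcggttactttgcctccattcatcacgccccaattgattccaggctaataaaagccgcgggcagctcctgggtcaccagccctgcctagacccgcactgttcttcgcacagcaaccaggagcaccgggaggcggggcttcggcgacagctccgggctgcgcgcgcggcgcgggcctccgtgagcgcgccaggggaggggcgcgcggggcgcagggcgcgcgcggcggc

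Among the exporters, Mfsd2b fell with age and the value of Spns2 did not pass. Mfsd2b encodes the S1P exporter of red cells and platelets (ENSMUSG00000037336, chromosome 12, 4862440 to 4874359, minus strand). It was at 48.4, 41.2 and 48.6 CPM in young, 38.1, 33.9 and 33.6 in old and 37.4, 40.3 and 37.3 in treated old libraries. All old and treated libraries were below all young ones. The log2 fold change was -0.39 ± 0.074 with age (adjusted p = 0.000307) and 0.12 ± 0.076 with the compound (adjusted p = 0.696). Beside it, the summed level of 8 erythroid markers was 851.4 to 891 CPM in young, 389.7 to 391.1 in old and 434.3 to 437.4 in treated old libraries, and that of 8 megakaryocyte and platelet markers was 456.1 to 498, 230.8 to 259.1 and 298.7 to 314 CPM. With age 7 of the 8 erythroid markers fell and 1 rose, and 4 of the 7 megakaryocyte markers tested fell. Over all genes 19.8% fell and 19.6% rose with age. No marker of either list was at 0 throughout a group. With the compound 1 marker of each list rose and 0 fell, where 0.766% and 0.429% of all genes did. The part of these cells in the level of Mfsd2b was not tested. Spns2, the exporter of endothelium and of several other tissues, was at 17.2 to 19.2 CPM in young, 14.3 to 17.2 in old and 15.0 to 16.8 in treated old libraries, with a log2 fold change of -0.18 ± 0.091 with age (adjusted p = 0.115). Of its exonic bases 3.2% are shared with Mybbp1a on the other strand, which was at 91.7 ± 1.90 CPM in young and 94.1 ± 0.794 in old HSC. Mfsd2b held 67.0% ± 3.52 of the summed exporter level per length in young, 64.0% ± 1.06 in old and 65.7% ± 0.575 in treated old HSC, ranges that overlapped between young and old.

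The promoter window of Mfsd2b holds a GC box and the CACCC box at 2 places, and is printed because Mfsd2b had, per length, the highest mean of the 10 genes in each group.
Mfsd2b, chr12:4874310-4874609, minus strand: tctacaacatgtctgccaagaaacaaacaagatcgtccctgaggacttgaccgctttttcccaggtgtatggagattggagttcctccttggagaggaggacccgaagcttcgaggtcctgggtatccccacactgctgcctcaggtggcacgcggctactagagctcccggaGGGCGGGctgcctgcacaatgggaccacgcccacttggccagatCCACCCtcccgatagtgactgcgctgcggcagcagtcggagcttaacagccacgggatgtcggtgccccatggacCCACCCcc

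The genes whose pattern over the 9 libraries was nearest to that of Mfsd2b were Rasal3, which encodes a Ras GTPase-activating protein, Cd48, a surface protein used to separate HSCs from later progenitors, and Cd27, a costimulatory receptor. Their root mean square distance from Mfsd2b in centred log2 CPM was 0.0582, 0.0601 and 0.0648, beside a median of 0.23 over 7718 genes at 10 CPM or more. Cd48 was at 296.3 ± 7.60 CPM in young, 235.2 ± 9.10 in old and 253.4 ± 3.17 in treated old HSC. Nearest to Sphk2 were Ppp1r13b, Specc1l and Mpnd, at distances of 0.11, 0.114 and 0.115. Ppp1r13b, which encodes a p53-binding protein, was at 15.65 ± 1.501 CPM in young, 17.1 ± 1.06 in old and 14.4 ± 1.31 in treated old HSC. These distances are descriptions, and the 9 libraries share their groups.

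None of the 4 receptor genes passed the test between old and young HSC. S1pr3, a receptor that couples to several classes of G protein, came nearest (ENSMUSG00000067586, chromosome 13, 51408639 to 51422797, plus strand). It was at 5.76, 5.10 and 5.85 CPM in young, 4.06, 4.79 and 4.16 in old and 3.89, 3.45 and 4.01 in treated old libraries. The 3 groups did not overlap with one another, in the order young, old, treated old. The highest treated library, at 4.01 CPM, lay just below the lowest old one, at 4.06. With age the log2 fold change was -0.36 ± 0.144 (adjusted p = 0.0549 by edgeR's quasi-likelihood test). Under a stricter filter on low counts it was -0.40 (adjusted p = 0.0286 by the same test). With the compound the log2 fold change was -0.20 ± 0.156 (adjusted p = 0.802). Counts of S1pr3 were 56 to 139 per library.

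S1pr4, a receptor of lymphoid and myeloid cells, was the most abundant receptor per length, at 7.25 ± 1.63 CPM per kilobase in young, 6.21 ± 0.318 in old and 6.10 ± 0.677 in treated old HSC. Its young libraries stood at 21.3, 13.5 and 17.0 CPM, a spread of 22.5% that exceeds the 5.09% given by counting, and the old ones at 14.0 to 15.5 CPM. The log2 fold change with age was -0.23 ± 0.126 (adjusted p = 0.159). Without young replicate 2, the lowest of the young libraries, it was -0.36 and passed (adjusted p = 0.017 by edgeR's quasi-likelihood test). Without young replicate 1, the highest of them, it was -0.0376 (adjusted p = 0.823), so that its size rested on that library. Beside S1pr4, the summed level of 8 neutrophil and myeloid granule markers was 26270 to 29300 CPM in young, 40430 to 42770 in old and 40220 to 40970 in treated old libraries. Most of that sum was Mpo (11260 CPM in young, 16800 in old) and Elane (11140 and 16260), which myeloid progenitors express too. The late granule gene Ltf was at 36.8 CPM in young and 35.4 in old HSC. With age 7 of the 8 markers rose and 0 fell, where 19.6% and 19.8% of all genes did. Their part in the level of S1pr4 was not tested. S1pr1, the receptor by which lymphocytes sense S1P on leaving tissues, was at 7.26 to 8.56 CPM in young, 7.53 to 8.75 in old and 7.08 to 8.87 in treated old libraries. The 3 groups overlapped, and the 95% interval of its fold with age ran from 0.869 to 1.24. S1pr2, a receptor that can oppose cell migration, was at 4.65 to 6.01, 4.59 to 6.67 and 3.60 to 5.42 CPM. Its interval with age ran from 0.769 to 1.28 and its log2 fold change of -0.01 ± 0.176 changed sign between settings.

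S1pr4 held the largest share of the receptors in each group. Of the summed level per length of S1pr1 to S1pr5, S1pr4 held 59.7% ± 4.39 in young, 58.2% ± 0.724 in old and 59.7% ± 1.98 in treated old HSC. S1pr1 held 21.9% ± 2.40, 25.4% ± 0.829 and 24.99% ± 0.838, S1pr3 10.5% ± 1.01, 9.10% ± 0.538 and 8.39% ± 1.41, and S1pr2 5.57% ± 0.841, 6.23% ± 1.30 and 5.27% ± 0.653. For S1pr1 the young libraries (19.2% to 23.4%) lay below the old (24.8% to 26.4%) and the treated ones (24.0% to 25.5%). The levels of 48.4% of all genes did not overlap with age, while the level of S1pr1 itself did. Its share also depends on the levels of the other receptors and was not tested. In the shares of S1pr2, S1pr3, S1pr4 and S1pr5 young and old libraries overlapped. S1pr5, a receptor of natural killer cells, held 2.40% ± 0.706, 1.05% ± 0.918 and 1.60% ± 0.829, on counts of 0 to 16 per library. Endothelial cells also use these receptors. The summed level of 7 endothelial markers was 46.4 to 51.4 CPM in young, 38.1 to 42.0 in old and 38.8 to 40.4 in treated old libraries, and their defining gene Cdh5 had 5 counts or fewer in every library. The 6 T and NK cell markers summed to 12.1 to 13.9, 6.55 to 8.76 and 6.56 to 8.84 CPM, and 6 B cell markers to 67.3 to 74.3, 62.3 to 67.0 and 65.7 to 69.9 CPM. The 5 stromal markers summed to 10.3 to 13.6, 9.24 to 9.55 and 10.5 to 12.5 CPM. What these cells add to the receptor counts was not tested.

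Ordered by level per length in young HSC, the 10 genes ran from Mfsd2b (8.94 ± 0.82 CPM per kilobase) through S1pr4, Sgpp1, Spns2, Sphk1, S1pr1, Sgpl1 and Sphk2 to S1pr3 (1.248 ± 0.092) and S1pr2 (0.665 ± 0.086). Neighbours whose libraries overlapped in young HSC were Mfsd2b and S1pr4, Sgpp1 and Spns2, and S1pr1 and Sgpl1. In old HSC Sgpp1 stood in the second place at 6.64 ± 0.404 and Sphk1 in the eighth place at 1.77 ± 0.225, below Sphk2, with overlapping libraries. The highest and the lowest of the order, Mfsd2b and S1pr2, were the same in all 3 groups. Averaged over the 9 libraries, the level per length of Mfsd2b exceeded that of 69.7% of all genes tested, that of Sphk1 46.4%, that of Sphk2 41.7% and that of S1pr2 25.3%. With the length of the longest transcript, 43 of the 45 pairs of genes kept their order in young HSC.

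**Figure D3:**
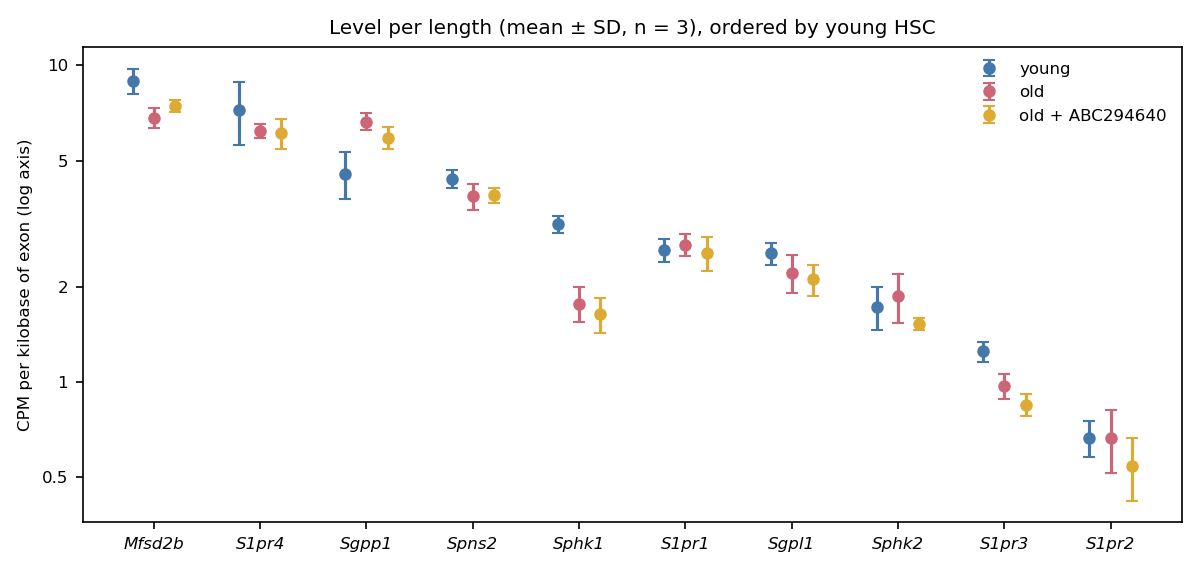
Level of the 10 genes in CPM per kilobase of exon (log axis), mean ± SD of 3 libraries in young, old and ABC294640-treated old HSC, in the order of the young group. Sphk1 is in the fifth place in young and the eighth in old HSC, Sgpp1 in the third and the second, and Mfsd2b and S1pr2 stay at the ends of the order.

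With ABC294640, none of the 10 genes passed the test against untreated old HSC, and 1.19% of all genes did, 0.766% rising and 0.429% falling. The count at an unadjusted p under 0.05 was also 0 of 10 (8.83% of all genes), and DESeq2 called 0 of 10, giving no adjusted p for Sphk2, S1pr1, S1pr2 and S1pr3. The largest differences were in S1pr2 (log2 fold change -0.29 ± 0.187, adjusted p = 0.714) and Sphk2 (-0.28 ± 0.148). Leaving out 1 library at a time gave -0.48 to -0.11 for S1pr2, lowest in size without old replicate 3, and -0.36 to -0.13 for Sphk2, so the order of these genes was not fixed. Of the 10 values 8 were below 0, with a median of -0.11 beside 0.001 over all genes. Treated libraries lay below all untreated ones for 2 of the 10, Sphk2 and S1pr3, and above for 0. Over all genes the shares were 7.13% and 8.34%, or 15.5% in either direction. The 95% intervals reflect only the spread between these libraries, which may be technical. For Sphk1, Sgpl1, Sgpp1, Spns2, Mfsd2b, S1pr1 and S1pr4 they lay between 0.765 and 1.22 times the untreated level. For S1pr3 the interval ran from 0.695 to 1.09 and for S1pr2 from 0.624 to 1.07.

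**Figure D4:**
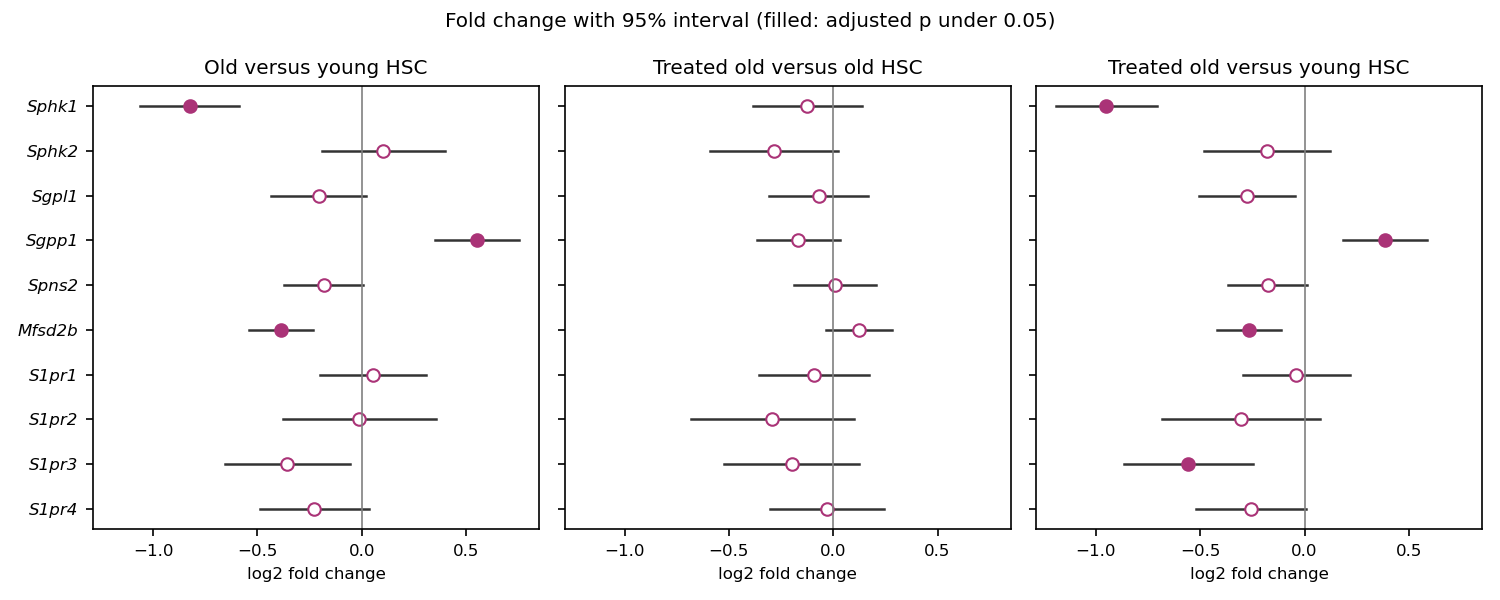
Log2 fold change (horizontal axis) of the 10 genes in the 3 comparisons, with its 95% interval; filled points passed an adjusted p of 0.05. The filled genes number 3 for old against young, 0 for treated against untreated old, and 4 for treated old against young HSC.

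Treated old HSC set against young HSC gave 4 calls of 10, where 37.6% of all genes passed. There was 1 rise (19.1% of all genes) and there were 3 falls (18.5%). Sphk1 (log2 fold change -0.95 ± 0.116, adjusted p = 1.83e-06), Mfsd2b (-0.27 ± 0.073, adjusted p = 0.00721) and S1pr3 (-0.56 ± 0.147, adjusted p = 0.0056) fell, and Sgpp1 rose (0.38 ± 0.097, adjusted p = 0.00394). This comparison shares its young libraries with the age comparison. Side by side, the log2 fold change from young was -0.83 in untreated and -0.95 in treated old HSC for Sphk1, -0.39 and -0.27 for Mfsd2b, -0.36 and -0.56 for S1pr3, and 0.55 and 0.38 for Sgpp1. The differences within each of these pairs are the treated-to-untreated values above, none of which passed. Sgpl1 had a log2 fold change of -0.28 ± 0.11 (adjusted p = 0.0529) and its treated libraries lay below the young ones. It passed in a fit of the 2 groups alone (adjusted p = 0.0464), under the stricter filter (adjusted p = 0.0228) and without treated replicate 1 (adjusted p = 0.0466), all by edgeR's quasi-likelihood test. It did not pass under the other settings, among them DESeq2 (adjusted p = 0.153), the fit without young replicate 2 (adjusted p = 0.202) and the fit without treated replicate 3 (-0.18, adjusted p = 0.26). S1pr4 (-0.26 ± 0.126, adjusted p = 0.115) passed without young replicate 2 (-0.40, adjusted p = 0.0105) and was -0.0745 without young replicate 1 (adjusted p = 0.641). The treated libraries did not overlap with the young ones for 6 of the 10 genes, against 48.4% of all genes, 5 of them lower (24.7%) and 1 higher (23.7%). At an unadjusted p under 0.05 there were 5 of 10 (46.2%).

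Of 39 further genes of the pathway, 38 were in the table and 35 were tested. With age 12 rose and 6 fell, with the compound 0 passed, and in treated old against young HSC 13 rose and 5 fell. The background is 39.4% of all genes with age (19.6% rising and 19.8% falling), 1.19% with the compound, and 37.6% in treated old against young HSC (19.1% and 18.5%). At an unadjusted p under 0.05 the compound comparison held 1 of the 35, Klf2, against 8.83% of all genes. The genes named here follow a rule based on p, and others, said to be so, were named after their values were seen.

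Genes that make ceramide or release sphingosine from it went both ways with age. Of 10 tested, 3 rose and 2 fell. Asah1, the acid ceramidase of lysosomes, rose from a mean of 82.1 to one of 111 CPM (0.44 ± 0.059 on the log2 scale, adjusted p = 6.79e-06), and Cers2, a ceramide synthase for very long acyl chains, rose from 176.3 to 245.4 CPM (adjusted p = 1.95e-08). Degs1, which makes ceramide by desaturating dihydroceramide, fell from 81.5 to 60.1 CPM (adjusted p = 4.3e-06). Named after their values were seen, Cers6 rose from 38.3 to 48.2 CPM and Acer2, an alkaline ceramidase of the Golgi, fell from 9.94 to 4.36 CPM. Its log2 fold change was -1.19 ± 0.177 (adjusted p = 2.01e-05), with 180 to 285 counts in young and 75 to 80 in old libraries. Of 5 genes of breakdown and dephosphorylation beyond the 10, 0 rose and 1 fell, the lipid phosphatase gene Plpp2, also named after its value was seen (from 7.53 to 4.99 CPM). Of 4 tested genes of export and carriage, 0 rose and 2 fell. Abcc1, an ATP-driven exporter, fell from 28.5 to 23.9 CPM (adjusted p = 0.00853), as did the lipid transporter gene Abcg1, named after its value was seen (from 42.9 to 35.7 CPM).

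Of 16 tested genes of receptor signalling, 9 rose and 1 fell with age, where 19.6% of all genes rose and 19.8% fell. The 16 genes had a median log2 fold change of 0.22 beside -0.03 over all genes. The list was chosen with earlier results of these data known, so these values describe its genes and do not test the pathway. Arrb2, a beta-arrestin that takes receptors off the cell surface, rose from 58.9 to 91.2 CPM (0.63 ± 0.058 on the log2 scale, adjusted p = 2.92e-08), and Gnai3, an inhibitory G protein subunit, rose from 85.9 to 125.2 CPM (adjusted p = 2.09e-07). Cd69, whose protein binds S1PR1 and removes it from the surface, rose from 443.8 to 578 CPM (adjusted p = 3.23e-06). Klf2, a transcription factor that drives S1pr1 in lymphocytes, rose from 156.4 to 204.2 CPM (adjusted p = 3.87e-06), while S1pr1 itself was at 7.97 ± 0.66 and 8.27 ± 0.649 CPM. The 1 that fell was Arrb1, the other beta-arrestin, from 12.7 to 9.89 CPM (adjusted p = 0.0102), named after its value was seen. With the compound, Klf2 was at 184 CPM against 204.2 in untreated old HSC. Its log2 fold change was -0.15 ± 0.05 (unadjusted p = 0.00709 and adjusted p = 0.248 by edgeR's quasi-likelihood test). Its treated libraries were all below the untreated ones, as were those of 7.13% of all genes. The next by p were Rac1, Gnai2 and Gna11, at -0.08 ± 0.039, -0.09 ± 0.047 and -0.13 ± 0.077 on the log2 scale. For Rac1 and Gna11 too the treated libraries were all below the untreated ones, and for Gnai2 they overlapped. In treated old against young HSC, the 4 of smallest p were Cers2, Gnai3, Arrb2 and Degs1, at 0.46 ± 0.043, 0.60 ± 0.057, 0.61 ± 0.058 and -0.47 ± 0.058. Asah1 and Klf2 rose in that comparison too, Abcc1 did not pass (adjusted p = 0.0621), and Sgpp2 and S1pr5 passed in none of the 3.

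**Figure D5:**
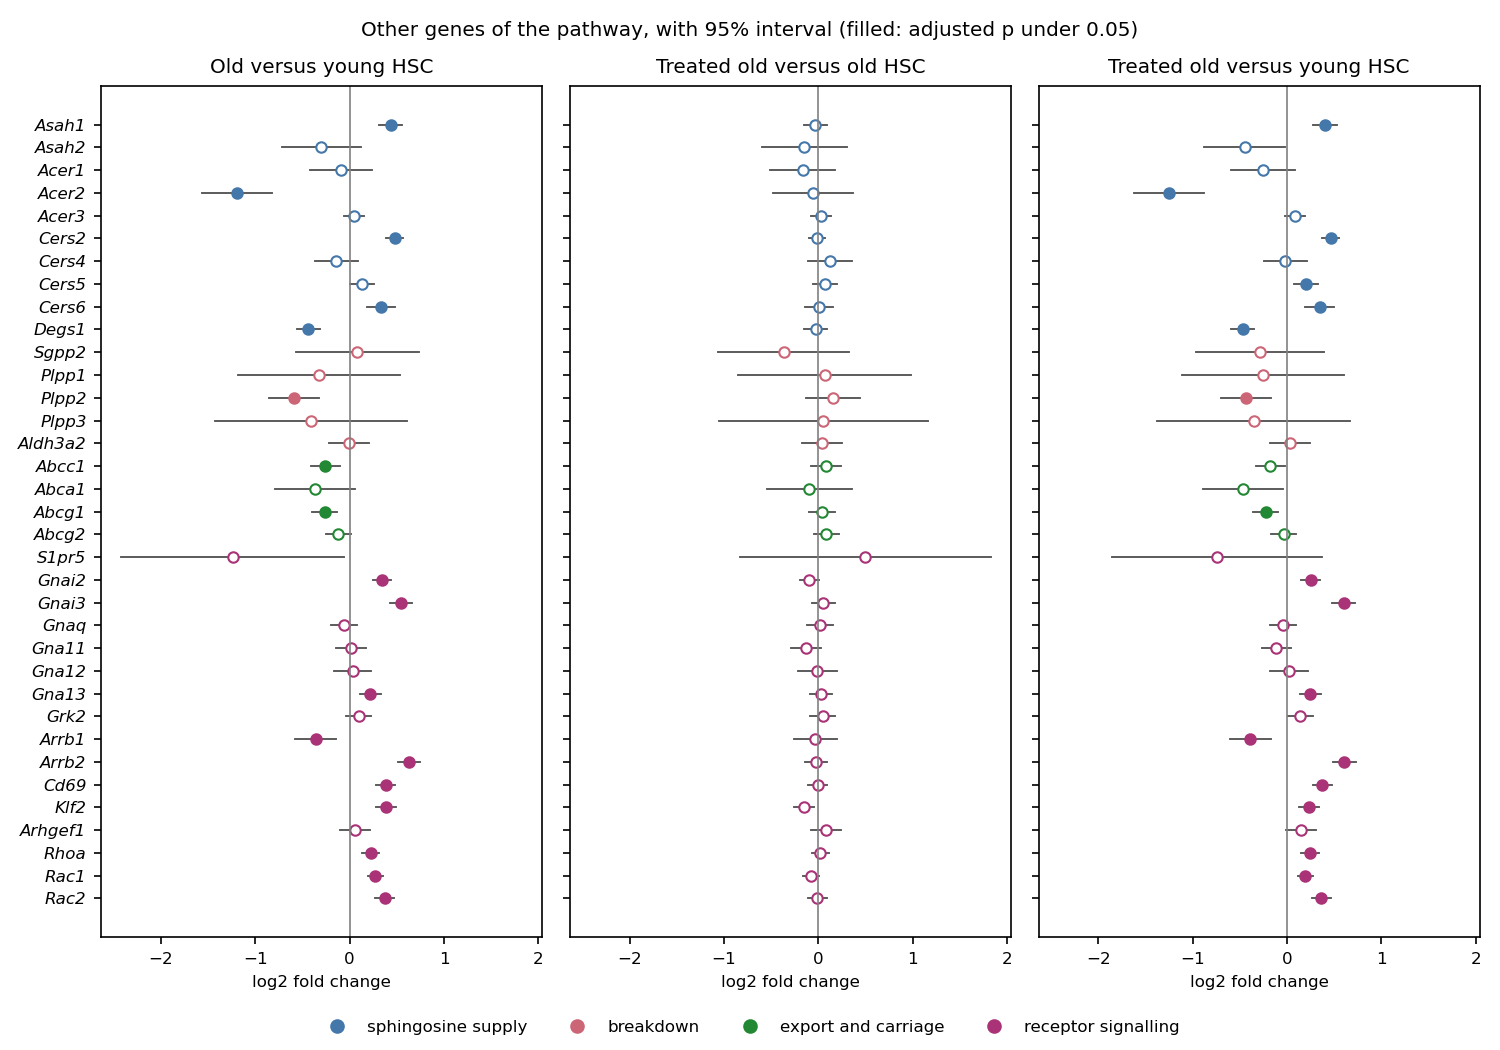
Log2 fold change (horizontal axis) with 95% interval of 35 other genes of the pathway in the 3 comparisons, coloured by role; filled points passed an adjusted p of 0.05. In old against young HSC 12 are filled to the right and 6 to the left, and in treated against untreated old HSC 0 are filled.

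Some deposited values are fractional, and the step that made them so is unknown. Sgpp1, S1pr2 and S1pr3 had whole values in all 9 libraries, Spns2 had a fractional value in 4 and S1pr1 in 6, and Sphk1, Sphk2, Sgpl1, Mfsd2b and S1pr4 in all 9. Of the 31-base words in the transcripts of Sphk2, 19.8% occur in transcripts of other genes on either strand, most of them in Dbp. For Sphk1 that share was 5.46%, and for the other 8 genes it was 0.36% to 2.76%.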

How the data were processed

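The 9 libraries of sorted HSCs were analysed. Per the labels' protocols, polyadenylated RNA of 1500 cells was copied and amplified after a modified single-cell protocol, and a transposase kit, which does not mark strand, made the libraries. The authors deposited expected counts (estimated counts that need not be whole) per gene and library. Of the non-zero values 56.0% were whole, and the sources used here do not name the step that gave fractions. Software named without a role, per the submitters' processing notes, was edgeR 3.24.3, HTSeq 0.10.0, STAR 2.6.1d and Trim Galore 0.6.2, with the build mm10.

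Counts were rounded and tested in edgeR 4.0.16 (R 4.3.3) in a single model of the 9 libraries by group, with TMM scaling, its default filter by group and the quasi-likelihood test, adjusted over 14227 genes. Standard errors are the fold change over the square root of F. Coordinates, overlaps and exon lengths come from GENCODE mouse release 21 (GRCm38), in which all 23317 gene identifiers were found. Promoter windows are RefSeq's. S1pr1 has none in that table, and the other 9 genes have 14. Libraries of a group differed by 2.23 to 8.6 in chi-square per degree of freedom, so none was counted as a repeat. Python 3.11.15 with pandas 2.3.3 and numpy 2.4.6 was used for summaries.

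The genes and lists were chosen with earlier results of these data known. All 10 genes were named. Of the other pathway genes the rule named the 4 of smallest p in each comparison plus S1pr5, Sgpp2, Asah1, Abcc1 and Klf2, and, for Sphk2 and Mfsd2b, the 3 genes of nearest pattern at 10 CPM or more (log2 CPM with a prior count of 2). Other settings tried were DESeq2 1.42.0, RLE size factors, a filter of at least 5 CPM in 3 libraries or none, a replicate block, a fit of the 2 groups compared, and leaving out each library. Counting intervals do not cover PCR copies, since reads without molecular identifiers are not independent molecules.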

Additional observations from a re-analysis of the deposited data

How the results depend on the processing

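All 7 calls among the 10 genes, 3 with age and 4 in treated old against young HSC, kept their direction and their side of the threshold in all 84 values under the other settings. The number of genes called ran from 3 to 4 with age, was 0 throughout with the compound, and ran from 4 to 5 for treated old against young HSC. The additions were S1pr3, S1pr4 and Sgpl1, as given above. Only genes that had not passed changed sign. With RLE size factors, without a filter and by DESeq2, the log2 fold change of S1pr2 with age was 0.0037, 0.0312 and 0.0247. With the compound, Spns2 was at -0.0004 with RLE size factors and -0.0064 under the stricter filter, and S1pr1 in treated old against young HSC was at 0.0067 without a filter. Leaving out 1 library gave ranges across 0 for Sphk2 (-0.039 to 0.20) and S1pr2 (-0.18 to 0.10) with age, for Sgpl1 (-0.15 to 0.0391), Spns2 (-0.0594 to 0.0753) and S1pr4 (-0.12 to 0.0404) with the compound, and for S1pr1 (-0.12 to 0.0344) in treated old against young HSC. The cause was not tested.

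Replicate numbers are shared between groups, and their pairing was checked over 14227 genes. Deviations of same-numbered libraries correlated at 0.063, 0.132 and 0.064 between old and young HSC, above the -0.096 to 0.035 of other-numbered ones. Between treated and untreated old HSC the values were -0.02, -0.081 and -0.035, beside -0.038 to 0.072. All were small, and the main fit did not take the numbers to pair the libraries. With the replicate block the calls were 3, 0 and 4 of the 10 genes, and 5582, 195 and 5355 of all genes. The count over all genes with the compound, 170, was 260 with the 2 groups alone, 333 without a filter and 48 to 176 when 1 library was left out. Counts of 56 to 195 per library in Sphk2, S1pr1, S1pr2 and S1pr3 limit what can be seen in them.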
